A study of Danio rerio with 49 samples.

Results

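The 5 genes described here are markers of macrophages and microglia. They were picked by identifier from a table of 40085 genes, with earlier results of these data known. They are mpeg1.1 (ENSDARG00000055290), lcp1 (ENSDARG00000023188), coro1a (ENSDARG00000054610), csf1ra (ENSDARG00000102986) and apoeb (ENSDARG00000040295). RNA of zebrafish spinal cord was sequenced after a complete transection at the seventh segment. Tissue came from the 5 segments caudal and the 5 segments rostral to the injury site at weeks 1, 2, 4 and 6 post injury (wpi), and from the matching segments of uninjured control fish. All fish, control fish included, were wild-type juvenile or adult animals of the AB strain and of both sexes. Each of the 10 groups had 5 libraries, except caudal 6 wpi with 4 (its replicate 4 was not analysed here), giving 49 libraries in all.

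Each group was collected from 3 fish and libraries were made from pooled tissue. Whether 1 group's libraries share fish is not stated, so the SDs and p-values below measure the spread between libraries, which may be technical. Values are FPKM, which scale the fragments of a gene by its length and by a total for each library. This total was not the fragments on genes. It was 15656016.9 beside 25084943 fragments in rostral control replicate 4, and 40620699.5 beside 25999589 in caudal 4 wpi replicate 3. The scale also bears on the contrast with control. Rescaled to the fragments on genes, the median log2 change of all genes at 1 wpi was 0.25 in caudal and 0.31 in rostral segments (-0.02 and -0.03 as deposited). The libraries held 4359571 to 26940599 fragments on genes, with a median of 19801039, and the shallowest was rostral 1 wpi replicate 1. Fold changes are differences of log2(FPKM + 0.1) with their SE, and a gene was called where the p of limma, adjusted by Benjamini and Hochberg's approach over all genes tested, was under 0.05. The 4 comparisons of a region with control share the same 5 control libraries. Where ranges are said to be apart, this describes the values only, as the share of all genes with such ranges is not given.

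Macrophages are phagocytes, some of which enter injured tissue from the circulation, and microglia are the resident macrophages of the brain and spinal cord. Both depend on the receptor for colony stimulating factor 1, both clear dead cells and myelin, and both handle the lipid this releases through apolipoproteins. In zebrafish, mpeg1.1 drives the common reporter lines for macrophages, lcp1 (L-plastin) is an actin bundling protein found in all leukocytes, coro1a (coronin 1A) is an actin binding protein of leukocytes, and apoeb encodes an apolipoprotein E that is a marker of microglia.

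In caudal segments, 4 of the 4 testable members rose at 1 wpi, 3 at 2 wpi and 2 at 4 wpi, and 0 passed the test at 6 wpi. In rostral segments, 4, 4, 3 and 2 rose at these weeks. The 0 at caudal 6 wpi, a group of 4 libraries, does not show a return to control levels. There csf1ra changed by 1.12 on the log2 scale, against 0.99 at caudal 4 wpi, where it was called. Of all genes tested, 7.62%, 4.47%, 1.15% and 0.345% were called higher at 1, 2, 4 and 6 wpi in caudal segments, and 6.32%, 9%, 5% and 3.44% in rostral segments. None of the 4 was called lower against control, beside 5.53%, 1.89%, 0.226% and 0.116% of all genes in caudal and 3.5%, 6.14%, 1.43% and 0.823% in rostral segments. The fifth member, coro1a, was at or near 0 in every library and could not be tested. A higher level of these transcripts can come from more macrophages and microglia in the segments, from other cells that express them or from more RNA per cell. Bulk tissue cannot tell these apart.

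**Figure D1:**
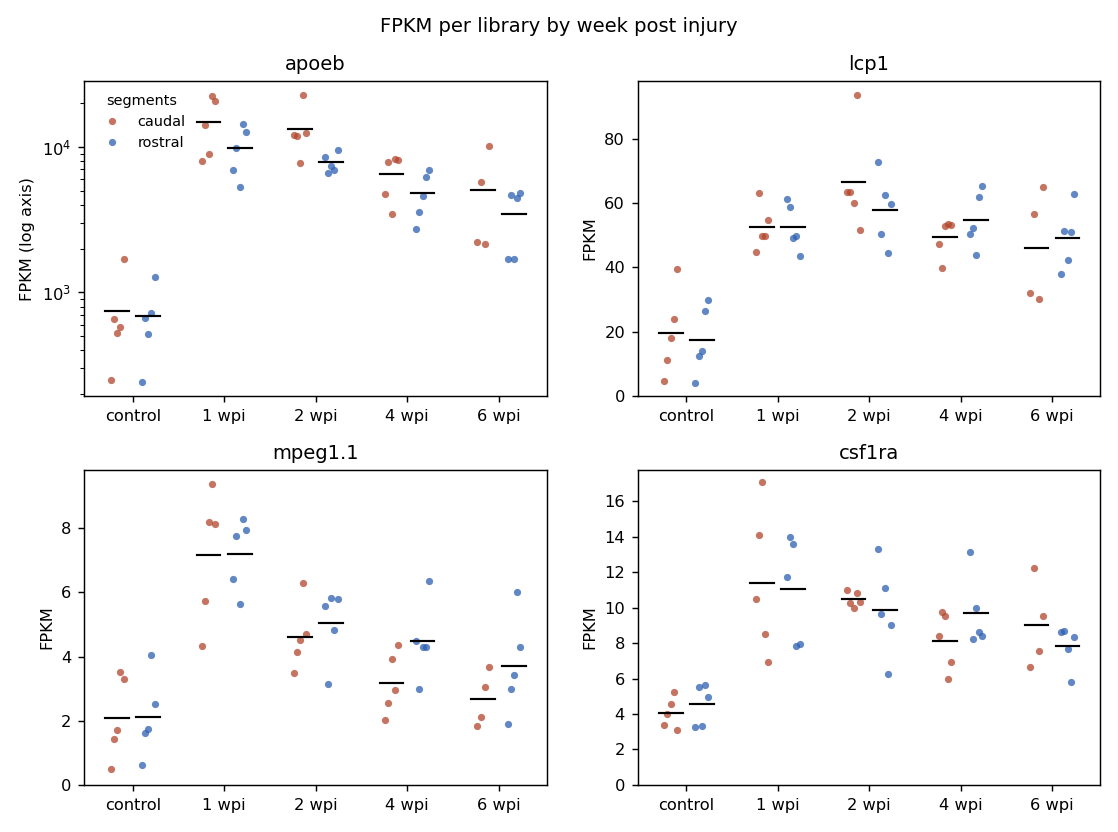
FPKM of apoeb (log axis), lcp1, mpeg1.1 and csf1ra in each library (points) in control segments and at 1, 2, 4 and 6 wpi, with caudal libraries left of rostral libraries and a black line at each group mean. All injured libraries of apoeb and csf1ra lie above the control libraries of their region, whereas mpeg1.1 is separated from control at 1 wpi in both regions and overlaps with it later.

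The receptor gene csf1ra (chromosome 14, 3143337 to 3180947, minus strand, danRer11) was higher in every injured library than in every control library of its region. In caudal segments it had 3.40, 3.99, 4.55, 5.22 and 3.08 FPKM in the control libraries, 10.5, 14.1, 17.1, 8.51 and 6.92 FPKM at 1 wpi and 10.99, 10.3, 10.01, 10.8 and 10.3 FPKM at 2 wpi. Later it had 8.38, 9.76, 9.55, 5.97 and 6.91 FPKM at 4 wpi and 6.65, 12.2, 7.58 and 9.55 FPKM at 6 wpi. The caudal means were 4.05 ± 0.866 FPKM in control and 11.4 ± 4.15, 10.5 ± 0.408, 8.11 ± 1.65 and 9.005 ± 2.48 FPKM at 1, 2, 4 and 6 wpi (SD, n = 5, and 4 at 6 wpi). The injured and control ranges of csf1ra did not overlap at any week, and the 2 wpi libraries differed least among themselves.

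In rostral segments csf1ra had 3.29, 5.54, 3.31, 5.65 and 4.96 FPKM in control, 11.7, 14.0, 13.6, 7.86 and 7.96 FPKM at 1 wpi and 13.3, 9.62, 11.1, 6.26 and 9.02 FPKM at 2 wpi. It had 13.1, 8.23, 9.99, 8.62 and 8.38 FPKM at 4 wpi and 8.63, 8.66, 7.68, 5.79 and 8.35 FPKM at 6 wpi. The rostral means were 4.55 ± 1.17 FPKM in control and 11.03 ± 2.97, 9.86 ± 2.60, 9.67 ± 2.06 and 7.82 ± 1.2 FPKM over the 4 weeks (SD, n = 5 each). Here too no injured library fell into the control range, and rostral 6 wpi replicate 4 came closest to it. With the 10 groups ordered by mean, both control groups stood last, and every neighbouring pair overlapped except rostral 6 wpi and rostral control.

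Against control, csf1ra rose at caudal 1 wpi by 1.42 on the log2 scale (SE 0.26, limma adjusted p = 0.00489), at caudal 2 wpi by 1.38 (SE 0.17, adjusted p = 0.000901) and at caudal 4 wpi by 0.99 (SE 0.20, adjusted p = 0.0347). At caudal 6 wpi the change of 1.12 (SE 0.23) missed the threshold with an adjusted p of 0.0658. In rostral segments it rose by 1.25 (SE 0.24, adjusted p = 0.00792), 1.1 (SE 0.23, adjusted p = 0.0103) and 1.09 (SE 0.21, adjusted p = 0.00958) at 1, 2 and 4 wpi. The rostral change of 0.79 at 6 wpi (SE 0.21, adjusted p = 0.0544) missed it. The caudal 4 wpi call was lost without control replicate 1, 2 or 3 or without 4 wpi replicate 1, 2, 3 or 5, with changes of 0.91 to 1.04 and adjusted p of 0.0613 to 0.0919.

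The paralogue csf1rb (ENSDARG00000053624, chromosome 21, 43854594 to 43877428, plus strand) encodes the second CSF1 receptor of zebrafish, and its means were highest later after injury. It averaged 3.40 ± 1.31 FPKM in caudal control and 5.98 ± 1.38, 9.31 ± 1.49, 8.42 ± 1.41 and 9.64 ± 1.56 FPKM over the weeks (SD, n = 5, and 4 at 6 wpi). In rostral segments the means were 3.58 ± 1.57 in control and 4.45 ± 0.856, 8.81 ± 2.60, 10.7 ± 3.25 and 8.01 ± 0.299 FPKM over the weeks (SD, n = 5 each). Control and injured ranges of csf1rb overlapped at 1 wpi in both regions and were apart at 2, 4 and 6 wpi.

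At 1 wpi csf1rb was not called, with a change of 0.84 in caudal segments (limma adjusted p = 0.0688) and 0.37 in rostral segments (adjusted p = 0.438). It rose at 2, 4 and 6 wpi by 1.49, 1.35 and 1.54 in caudal segments (adjusted p = 0.00548, 0.0243 and 0.0389) and by 1.33, 1.58 and 1.23 in rostral segments (adjusted p = 0.0086, 0.00712 and 0.0158). The caudal 1 wpi change passed without control replicate 5 or 1 wpi replicate 2 (1.01 to 1.02, adjusted p 0.0262 to 0.0275). The caudal 4 wpi call was lost without control replicate 1, 3 or 4 or 4 wpi replicate 1, 2, 3 or 4 (1.25 to 1.39, adjusted p 0.0525 to 0.0677). The caudal 6 wpi call was lost without any library other than control replicate 5 (1.38 to 1.63, adjusted p 0.074 to 0.134) and under a block for replicate number (adjusted p = 0.0782).

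The ratio of csf1rb to csf1ra within a library, a comparison of levels per gene length, averaged 0.888 in caudal control and 0.596, 0.885, 1.06 and 1.12 at 1, 2, 4 and 6 wpi. In rostral segments it averaged 0.808 in control and 0.432, 0.905, 1.1 and 1.04 over the weeks. In control the ratio was above 1 in 1 of 5 libraries in each region. At 1 wpi the ratio was under 1 in all 10 libraries, and at 6 wpi it was above 1 in 2 of 4 caudal and 2 of 5 rostral libraries. These ratios were not tested.

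**Figure D2:**
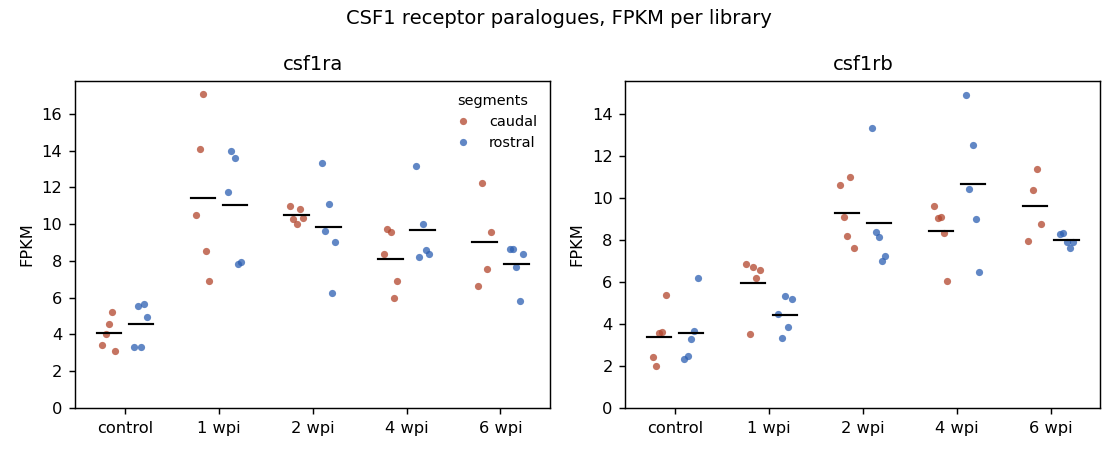
FPKM of csf1ra and csf1rb per library (points) in control segments and at 1, 2, 4 and 6 wpi, caudal left of rostral, with a black line at each group mean. The csf1ra means are highest at 1 wpi (11.4 caudal, 11.03 rostral), and the csf1rb means are highest at 6 wpi in caudal (9.64) and at 4 wpi in rostral segments (10.7).

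Of the ligands of these receptors, il34 (interleukin 34) was not called at 1 wpi, with 6.37 ± 2.23 FPKM at caudal 1 wpi and 3.32 ± 1.47 in caudal control (SD, n = 5 each, log2 change 0.95, limma adjusted p = 0.0763), and 5.86 ± 1.78 at rostral 1 wpi and 2.91 ± 1.06 in rostral control (1.01, adjusted p = 0.0525). At 6 wpi it rose in rostral segments by 1.51 (adjusted p = 0.0107). In caudal segments its change of 1.18 at 6 wpi was not called (limma adjusted p = 0.195) and passed in the fit blocked by replicate number (adjusted p = 0.0438). Of the ligands and csf1rb, 2 of 4 were called higher at caudal 2 wpi and at rostral 2 and 4 wpi. A ligand was thus called beside csf1rb before 6 wpi, and ligand values at 2 and 4 wpi are not given. The ligand csf1a changed by 0.11 in caudal and 0.08 in rostral segments at 1 wpi (adjusted p = 0.891 and 0.905). The ligand csf1b, named after its values were seen, fell at rostral 1 wpi to 0.713 ± 0.358 FPKM, against 2.81 ± 1.08 FPKM in control (SD, n = 5 each, limma adjusted p = 0.00871). No CSF1 ligand was called lower in caudal segments at any week.

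The macrophage gene mpeg1.1 (chromosome 8, 29710110 to 29713621, minus strand), which encodes a pore-forming protein of phagocytes, was highest at 1 wpi in both regions and nearer to control at each later week. In caudal segments it had 0.501, 1.44, 1.71, 3.51 and 3.31 FPKM in control, 4.33, 5.72, 8.21, 9.38 and 8.15 FPKM at 1 wpi and 3.49, 4.14, 4.52, 6.28 and 4.70 FPKM at 2 wpi. It had 2.01, 2.56, 3.92, 2.97 and 4.35 FPKM at 4 wpi and 1.84, 2.12, 3.05 and 3.69 FPKM at 6 wpi. The caudal means were 2.09 ± 1.28 FPKM in control and 7.16 ± 2.07, 4.63 ± 1.04, 3.16 ± 0.963 and 2.68 ± 0.851 FPKM over the weeks (SD, n = 5, and 4 at 6 wpi). The 1 wpi libraries lay above every caudal control library, and from 2 wpi on the ranges overlapped.

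In rostral segments mpeg1.1 had 0.635, 1.62, 1.75, 4.05 and 2.53 FPKM in control, 6.41, 7.75, 5.63, 8.30 and 7.94 FPKM at 1 wpi and 5.57, 3.15, 5.83, 4.83 and 5.81 FPKM at 2 wpi. It had 4.49, 3.00, 4.30, 4.29 and 6.36 FPKM at 4 wpi and 1.90, 2.98, 3.43, 6.01 and 4.29 FPKM at 6 wpi. The rostral means were 2.12 ± 1.27 FPKM in control and 7.21 ± 1.13, 5.04 ± 1.13, 4.49 ± 1.2 and 3.72 ± 1.54 FPKM over the weeks (SD, n = 5 each). Again only the 1 wpi range was apart from control. Within control the libraries of each region spread widely, with replicate 1 the lowest and replicate 4 the highest in both. In the order of the 10 groups by mean mpeg1.1, every neighbouring pair overlapped.

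At 1 wpi mpeg1.1 rose by 1.93 in caudal segments (SE 0.44, limma adjusted p = 0.0143) and by 1.92 in rostral segments (SE 0.38, adjusted p = 0.00799). At 2 wpi the change was 1.34 in caudal segments (SE 0.42, adjusted p = 0.0839) and the rise in rostral segments was 1.39 (SE 0.39, adjusted p = 0.0318). At 4 and 6 wpi it was not called, with changes of 0.78 and 0.55 in caudal segments (adjusted p = 0.478 and 0.753) and 1.22 and 0.90 in rostral segments (adjusted p = 0.0885 and 0.285). In the fit blocked by replicate number, the rostral 6 wpi change was called (adjusted p = 0.027), as were 5.18% of all genes in the higher direction. The rostral 2 wpi call was lost without control replicate 2 or 3 or 2 wpi replicate 1, 3, 4 or 5 (1.33 to 1.4, adjusted p 0.0598 to 0.0734). The caudal 2 wpi change passed without control replicate 5 (1.56, adjusted p = 0.0423) and the rostral 4 wpi change without control replicate 4 (1.5, adjusted p = 0.0327).

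The leukocyte gene lcp1 (chromosome 9, 56251000 to 56272465, minus strand) had means of 46.0 FPKM or more in all 8 injured groups. In caudal segments it had 4.59, 11.4, 18.2, 23.9 and 39.4 FPKM in control, 44.9, 63.2, 49.9, 49.8 and 54.7 FPKM at 1 wpi and 63.6, 63.3, 60.0, 93.4 and 51.7 FPKM at 2 wpi. It had 47.3, 40.0, 53.0, 53.5 and 53.0 FPKM at 4 wpi and 32.2, 56.6, 30.2 and 65.1 FPKM at 6 wpi. The caudal means were 19.5 ± 13.3 FPKM in control and 52.5 ± 6.90, 66.4 ± 15.9, 49.4 ± 5.85 and 46.0 ± 17.5 FPKM over the weeks (SD, n = 5, and 4 at 6 wpi). The injured ranges were apart from control at 1, 2 and 4 wpi, and at 6 wpi replicates 1 and 3 fell below control replicate 5.

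In rostral segments lcp1 had 4.23, 12.5, 14.2, 26.6 and 29.8 FPKM in control, 61.4, 58.8, 49.1, 49.9 and 43.5 FPKM at 1 wpi and 72.9, 50.2, 62.4, 44.3 and 59.8 FPKM at 2 wpi. It had 50.3, 52.2, 43.8, 62.0 and 65.2 FPKM at 4 wpi and 38.0, 51.2, 42.2, 50.8 and 62.8 FPKM at 6 wpi. The rostral means were 17.5 ± 10.6 FPKM in control and 52.5 ± 7.38, 57.9 ± 11.1, 54.7 ± 8.76 and 48.99 ± 9.56 FPKM over the weeks (SD, n = 5 each). All rostral injured libraries lay above all rostral control libraries. The control values were lowest in replicate 1 and highest in replicate 5 in both regions, and among the 8 injured groups neighbours in the order of means all overlapped.

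Against control, lcp1 rose by 1.74 at caudal 1 wpi (SE 0.45, limma adjusted p = 0.0249) and by 2.06 at caudal 2 wpi (SE 0.46, adjusted p = 0.0225). The caudal changes of 1.65 at 4 wpi (SE 0.45, adjusted p = 0.103) and 1.48 at 6 wpi (SE 0.52, adjusted p = 0.296) were not called. In rostral segments lcp1 rose at all 4 weeks, by 1.86, 1.99, 1.91 and 1.75 (SE 0.43, 0.43, 0.43 and 0.44, adjusted p = 0.0192, 0.0114, 0.0217 and 0.0443). Some of these calls lay close to the threshold. That of caudal 1 wpi was lost without control replicate 2 or 1 wpi replicate 3, 4 or 5 (1.63 to 1.76, adjusted p 0.05 to 0.0563), and that of caudal 2 wpi without control replicate 2 or 2 wpi replicate 4 (1.93 to 1.95, adjusted p 0.0541 to 0.0592). That of rostral 4 wpi was lost without control replicate 3 or 4 wpi replicate 4 or 5 (1.84 to 1.91, adjusted p 0.0505 to 0.055), and that of rostral 6 wpi without control replicate 2 or 3 or any one 6 wpi library (1.65 to 1.83, adjusted p 0.052 to 0.117). The caudal 4 wpi change passed without control replicate 5 (1.99, adjusted p = 0.0244).

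**Figure D3:**
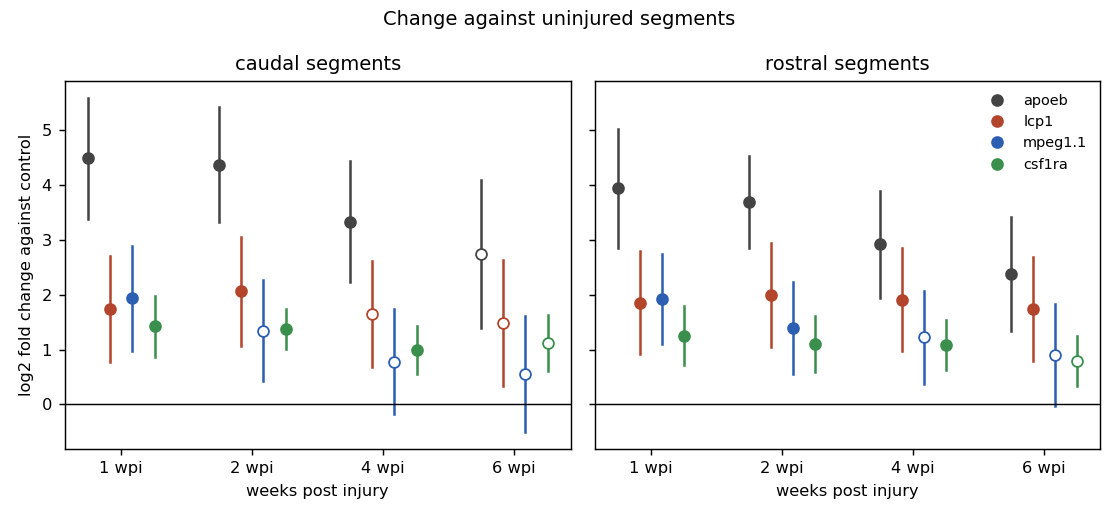
Log2 fold change against control of the same region (points) with 95% confidence intervals (lines) for apoeb, lcp1, mpeg1.1 and csf1ra at 1, 2, 4 and 6 wpi, caudal on the left and rostral on the right. Filled points passed the adjusted threshold of 0.05, and open points did not. The change of apoeb is the largest of the 4 at every week in both regions, from 4.48 at caudal 1 wpi to 2.37 at rostral 6 wpi.

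The entry for coro1a (chromosome 3, 30926364 to 30941362, minus strand, 1813 bases of exon) held 8 fragments in all 49 libraries together, spread over 6 libraries with at most 3 in any. The 6 libraries were caudal 1 wpi replicates 4 and 5, caudal 2 wpi replicate 1, caudal 4 wpi replicate 5, rostral 2 wpi replicate 3 and rostral 6 wpi replicate 1, and the highest value was 0.0770 FPKM. The gene was listed at 0 in the other 43 libraries, all 10 control libraries among them, and stayed under the minimum mean of 0.1 FPKM in every comparison. This entry was therefore not tested. The gene cldni, on the other strand, overlaps with it and averaged 0.00151 FPKM.

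A second entry lies at the same start and on the same strand of the alternate contig CHR_ALT_CTG3_1_19 (30926364 to 30941739, 2190 bases) and held 28549 fragments. The deposited table gives it no gene name. It had 3.75, 4.31, 10.1, 5.53 and 15.4 FPKM in caudal control and 16.7, 14.1, 22.6, 28.3 and 20.4 FPKM at caudal 1 wpi. In rostral segments it had 3.72, 2.39, 7.48, 13.5 and 9.01 FPKM in control and 12.3, 12.5, 18.2, 16.2 and 18.7 FPKM at 1 wpi. The ranges overlapped in both regions, by caudal control replicate 5 and rostral control replicate 4. The later caudal means were 17.9 ± 2.34, 12.8 ± 1.99 and 12.2 ± 3.75 FPKM at 2, 4 and 6 wpi, and the rostral means 19.4 ± 6.24, 14.7 ± 3.52 and 11.95 ± 1.52 FPKM (SD, n = 5, and 4 at caudal 6 wpi).

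This unnamed locus rose at caudal 1 wpi by 1.54 (SE 0.36, limma adjusted p = 0.0169), at caudal 2 wpi by 1.38 (SE 0.34, adjusted p = 0.0343) and at rostral 2 wpi by 1.60 (SE 0.42, adjusted p = 0.0245). At rostral 1 wpi the change was 1.32 (SE 0.40, adjusted p = 0.0566), and at 4 and 6 wpi it was 0.90 and 0.79 in caudal segments (adjusted p = 0.258 and 0.508) and 1.24 and 0.96 in rostral segments (adjusted p = 0.0931 and 0.206). The caudal 2 wpi call was lost without control replicate 1, 2 or 4 or any one 2 wpi library (1.17 to 1.43, adjusted p 0.0569 to 0.0824). The rostral 2 wpi call was lost without control replicate 1 or 2 wpi replicate 1, 3 or 5 (1.43 to 1.57, adjusted p 0.0553 to 0.0618). Without rostral control replicate 4 the changes at rostral 1 and 4 wpi passed (1.61 and 1.52, adjusted p = 0.0227 and 0.0346), and without caudal control replicate 5 that at caudal 4 wpi (1.2, adjusted p = 0.0408). The table held 4266 loci on alternate contigs, and 2524 genes had such a locus over at least 50% of their span on the same strand. Of these, 416 averaged under 0.1 FPKM beside a locus at 1 FPKM or more, and coro1a was the only one of the 5 members among them.

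**Figure D4:**
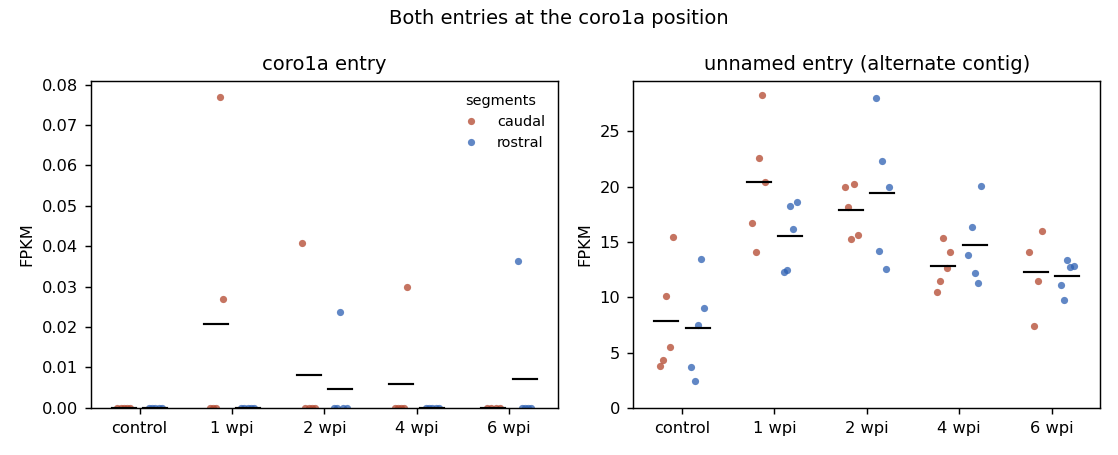
FPKM per library (points) of the coro1a entry and of the unnamed entry at the same start and on the same strand of an alternate contig, in control segments and at 1, 2, 4 and 6 wpi, caudal left of rostral, with a black line at each group mean. The coro1a entry does not exceed 0.0770 FPKM, whereas the unnamed entry averages 7.82 in caudal control and 20.4 at caudal 1 wpi. The vertical axes differ between the panels.

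The apolipoprotein gene apoeb (chromosome 16, 23960744 to 23963461, plus strand) changed most of the members and was among the most abundant transcripts of the injured cord. In caudal segments it had 249, 656, 525, 574 and 1692 FPKM in control, 7977, 14196, 8959, 22317 and 20613 FPKM at 1 wpi and 11988, 11849, 7813, 22617 and 12483 FPKM at 2 wpi. It had 4763, 7842, 3458, 8277 and 8069 FPKM at 4 wpi and 2217, 5755, 2145 and 10181 FPKM at 6 wpi. The caudal means were 739 ± 554 FPKM in control and 14812 ± 6545, 13350 ± 5509, 6482 ± 2219 and 5074 ± 3799 FPKM over the weeks (SD, n = 5, and 4 at 6 wpi). No caudal injured library fell into the control range.

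In rostral segments apoeb had 243, 671, 514, 725 and 1283 FPKM in control, 6914, 9832, 5333, 14314 and 12611 FPKM at 1 wpi and 8563, 6666, 7443, 6935 and 9502 FPKM at 2 wpi. It had 2739, 3571, 4573, 6203 and 6975 FPKM at 4 wpi and 1706, 4674, 1696, 4447 and 4824 FPKM at 6 wpi. The rostral means were 687 ± 382 FPKM in control and 9801 ± 3760, 7822 ± 1187, 4812 ± 1768 and 3469 ± 1620 FPKM over the weeks (SD, n = 5 each). The injured ranges were again all apart from control, and the 6 wpi range lay below that of 1 wpi. In the order of the 10 groups by mean, rostral 6 wpi and caudal control were the only neighbours whose ranges did not overlap.

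By mean FPKM over the 40085 genes of the table, apoeb ranked 3, 6, 8 and 9 at caudal 1, 2, 4 and 6 wpi and 54 in caudal control. In rostral segments it ranked 6, 6, 10 and 15 over the weeks and 60 in control. It took 2.11 to 4.28% of the fragments of the caudal 1 wpi libraries and 0.0562 to 0.251% of those of caudal control. In rostral libraries it took 1.25 to 3.05% at 1 wpi and 0.0498 to 0.178% in control. The ratio of the mean level to that of control was 20.04, 18.1, 8.77 and 6.86 over the weeks in caudal segments and 14.3, 11.4, 7.00 and 5.05 in rostral segments.

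Against control, apoeb rose by 4.48, 4.37 and 3.33 at caudal 1, 2 and 4 wpi (SE 0.51, 0.48 and 0.50, limma adjusted p = 0.000308, 0.000559 and 0.00767). At caudal 6 wpi the change of 2.75 (SE 0.61) was not called (limma adjusted p = 0.0862). The lowest value at caudal 6 wpi was 2145 FPKM and the highest in caudal control 1692 FPKM. In this comparison apoeb passed in the fit blocked by replicate number, which leaves out control replicate 4 (2.73, adjusted p = 0.0438, 0.267% of all genes called higher), and without control replicate 5 (3.12, adjusted p = 0.0339). In rostral segments apoeb rose by 3.94, 3.69, 2.92 and 2.37 over the weeks (SE 0.50, 0.39, 0.45 and 0.48, adjusted p = 0.000587, 0.000166, 0.00255 and 0.0177). The call at rostral 6 wpi was lost without control replicate 3 or 6 wpi replicate 5 (2.21 to 2.32, adjusted p 0.0508 to 0.053). The gene lies inside the span of nbn on the same strand, and nbn averaged 2.25 FPKM.

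Close relatives of the members did not all move with them. The other apolipoprotein E gene, apoea, stayed between 0 and 0.327 FPKM in all libraries and was not called. Of the relatives of lcp1, PLS3 (ENSDARG00000037655, T-plastin) rose by 1.09 at caudal 1 wpi (limma adjusted p = 0.005) and by 1.27 at rostral 1 wpi (adjusted p = 0.000885), and was called at 1, 2 and 4 wpi in both regions but not at 6 wpi (adjusted p = 0.431 caudal and 0.0526 rostral). PLS1 was called in no comparison with control. Of the coronins, coro1b was not called, and an entry with the symbol CORO1C (ENSDARG00000035598) rose at 1 wpi by 0.87 in caudal and 0.81 in rostral segments (adjusted p = 0.00447 and 0.00712). Another locus with the symbol MPEG1 (ENSDARG00000043093) averaged 3.02 ± 2.44 FPKM at rostral 1 wpi and 0.793 ± 0.152 in rostral control (SD, n = 5 each, log2 change 1.55, adjusted p = 0.0285), which was its only call.

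The members were next compared between 6 and 1 wpi. In caudal segments mpeg1.1 fell at 6 wpi by 1.38 relative to 1 wpi (SE 0.28, limma adjusted p = 0.0241), and the ranges were apart. It was the only 1 of the 4 tested members called, beside 3.08% of all genes called lower. The caudal call of mpeg1.1 was lost without 1 wpi replicate 3, 4 or 5 or 6 wpi replicate 1, 2 or 3 (-1.46 to -1.23, adjusted p 0.0587 to 0.0796). In rostral segments 0 of 4 were called and mpeg1.1 changed by -1.02 (SE 0.27, adjusted p = 0.0905), where 1.07% of all genes were called lower and 4136 had an unadjusted p under 0.05.

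The change of apoeb between 1 and 6 wpi was -1.74 in caudal segments (SE 0.64, limma adjusted p = 0.155) and -1.56 in rostral segments (SE 0.53, adjusted p = 0.183), where the 2 ranges were apart. Blocked by replicate number, both genes passed in both regions. The rostral adjusted p was then 0.0398 for mpeg1.1 and 0.0268 for apoeb (2.45% of all genes called lower), and the caudal change of apoeb was -1.56 with an adjusted p of 0.0326 (4.46% called lower, 1 wpi replicate 4 left out). The changes of lcp1 were -0.26 in caudal and -0.11 in rostral segments (adjusted p = 0.603 and 0.846) and those of csf1ra -0.30 and -0.46 (adjusted p = 0.59 and 0.343). The receptor csf1rb had a change of 0.70 in caudal segments (adjusted p = 0.108) and rose by 0.86 in rostral segments (adjusted p = 0.0287). The rostral call of csf1rb was lost without 1 wpi replicate 1, 2 or 4 or any one 6 wpi library (0.76 to 0.87, adjusted p 0.0512 to 0.0753).

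At 2 wpi against 1 wpi, 0 of the 4 members were called in either region. This held for nearly all genes, with 0% of those tested called in caudal segments and 0.0036% in rostral segments. At an unadjusted p under 0.05 there were 2232 genes in caudal and 2202 in rostral segments.

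Caudal and rostral segments were compared in control fish and through the difference of their changes after injury. In control, 0 of the 4 members differed between caudal and rostral segments, where limma called 0.0213% of all genes (0.0602% with same-numbered caudal and rostral libraries as a block) and 332 genes had an unadjusted p under 0.05. The change after injury differed between the regions for 0 of 4 members at each week. Of all genes, 0% were called in any week, and 391, 647, 798 and 575 had an unadjusted p under 0.05. With the pairs of libraries as a block the shares were 0.0106%, 0.36%, 0.483% and 0% at 1, 2, 4 and 6 wpi, again with 0 of the 4 members.

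Of the members, apoeb had the most one-sided values between regions, and the share of all genes with such values is not given. Among same-numbered libraries its caudal level was above its rostral level in 3 of 5 pairs in control, in 5 of 5 pairs at both 1 and 2 wpi, in 4 of 5 at 4 wpi and in 4 of 4 at 6 wpi. The mean log2 difference of these pairs was 0.02 in control and 0.57, 0.70, 0.43 and 0.52 over the weeks. At 1 wpi csf1rb and the unnamed locus at the coro1a position were also higher in caudal segments in 5 of 5 pairs. The change of apoeb was larger in caudal than in rostral segments by 0.55, 0.68, 0.41 and 0.38 on the log2 scale at 1, 2, 4 and 6 wpi (SE 0.71, 0.63, 0.68 and 0.81), and limma's adjusted p was 1.0 at each week. With the pairs as a block the SE at 1 wpi was 0.19, the 95% confidence interval 0.14 to 0.96 and the adjusted p 0.445, and at the later weeks the adjusted p was 0.484, 0.624 and 0.68. For mpeg1.1 the caudal level was the higher one in 1 of 5 pairs in control, in 3 and 2 of 5 at 1 and 2 wpi, in 0 of 5 at 4 wpi and in 0 of 4 at 6 wpi. With FPKM rescaled to each library's fragments on genes, these counts were 3 in control and 3, 2, 1 and 0 over the weeks. A difference of the regional changes was thus not detectable for any member with these libraries.

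The libraries of a group also differed by replicate number, to an extent that depended on the scale. In FPKM, the mean of replicates 4 and 5 was above that of replicates 1 to 3 in 10 of 10 groups for mpeg1.1 and for apoeb, in 7 for lcp1 and in 4 for csf1ra. With FPKM rescaled to each library's fragments on genes, this held in 5 groups for mpeg1.1, 8 for apoeb, 3 for lcp1 and 0 for csf1ra. The ratio of the fragments on genes to the total that the deposited FPKM were scaled by averaged 0.874, 0.792 and 0.902 in replicates 1 to 3 and 1.3 and 1.24 in replicates 4 and 5. In the deposited FPKM, within replicates 1 to 3 alone, the changes at caudal 1 wpi were 2.33 for mpeg1.1, 2.39 for lcp1, 1.76 for csf1ra and 4.51 for apoeb. Within replicates 4 and 5 alone they were 1.34, 0.76, 0.92 and 4.44 for the same genes. At rostral 1 wpi the values were 2.32, 2.61, 1.71 and 4.03 within replicates 1 to 3 and 1.31, 0.72, 0.57 and 3.80 within replicates 4 and 5. Every change at 1 wpi was thus positive within both sets, and apoeb differed least between the sets. The labels do not say what the numbers stand for, and the part of these sets in the results was not tested.

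Other genes of myeloid cells were counted in lists. Beside all list counts below, 7.62%, 4.47%, 1.15% and 0.345% of all genes were called higher at caudal 1, 2, 4 and 6 wpi. In rostral segments the shares were 6.32%, 9%, 5% and 3.44%. For counts with the replicate block at 6 wpi, the shares called higher were 0.267% in caudal and 5.18% in rostral segments. Of 6 myeloid transcription factors, 5, 4, 1 and 0 were called higher at caudal 1, 2, 4 and 6 wpi and 5, 5, 4 and 2 at the same weeks in rostral segments (4 at rostral 6 wpi with the replicate block). Their median log2 change at 1 wpi was 1.5 in caudal and 1.31 in rostral segments, beside -0.02 and -0.03 over all genes. The most abundant over all 49 libraries was CEBPB, with 31.0 ± 5.99 FPKM at caudal 1 wpi and 16.3 ± 9.55 in caudal control (SD, n = 5 each, limma adjusted p = 0.0509), followed by spi1a, a zebrafish gene for PU.1, with 37.3 ± 3.75 and 14.5 ± 8.603 FPKM (adjusted p = 0.0144). The least abundant, RUNX1, rose by 1.71 in caudal and 2.43 in rostral segments (adjusted p = 0.00445 and 0.000902).

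Of 12 genes for leukocyte surface proteins, cytoskeleton and NADPH oxidase, 8, 9, 2 and 0 were called higher at caudal 1, 2, 4 and 6 wpi and 10, 10, 10 and 6 in rostral segments (10 at rostral 6 wpi with the block). Their median change at 1 wpi was 2.00 in caudal and 1.81 in rostral segments, and at 6 wpi it was 1.22 and 1.27. ARPC1B, a subunit of the complex that branches actin, had 365 ± 70.1 FPKM at caudal 1 wpi and 77.3 ± 55.3 in caudal control (SD, n = 5 each, limma adjusted p = 0.00321). The lysosomal membrane gene laptm5 rose by 2.31 in caudal and 2.25 in rostral segments at 1 wpi (adjusted p = 0.00586 and 0.00927).

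The microglia list had 7 testable entries, of which 4, 4, 4 and 0 were called higher at caudal 1, 2, 4 and 6 wpi and 4, 4, 4 and 3 in rostral segments (1 in caudal and 4 in rostral segments at 6 wpi with the block). Its median change at 1 wpi was 1.36 in caudal and 1.23 in rostral segments. The 4 called at 1 wpi were the same genes in both regions. Among them, P2RY12, a purinergic receptor of microglia in mammals, had 10.05 ± 1.92 FPKM at caudal 1 wpi and 1.92 ± 0.736 in caudal control (limma adjusted p = 0.000259), and 9.86 ± 3.27 at rostral 1 wpi and 2.12 ± 0.625 in rostral control (SD, n = 5 each, adjusted p = 0.000677). The gene havcr1 rose by 2.48 in caudal and 2.05 in rostral segments (adjusted p = 0.0029 and 0.00877). Both were named after their values were seen. The most abundant entry of the list, timd4, a receptor for phosphatidylserine, went the other way. At 1 wpi timd4 fell to 118.5 ± 41.8 FPKM in caudal segments, against 328 ± 140 FPKM in caudal control, and to 124 ± 61.7 FPKM in rostral segments, against 348 ± 126 FPKM in rostral control (SD, n = 5 each, limma adjusted p = 0.0151 and 0.0294). It was called lower at 2 wpi in both regions as well, and at rostral 6 wpi with the block (adjusted p = 0.0323). CMKLR1 (ENSDARG00000090890), a chemerin receptor and another of the 4, rose by 2.66 in caudal and 2.50 in rostral segments at 1 wpi (adjusted p = 0.000874 and 0.000239).

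The macrophage list had 8 symbols, of which 5 had no match (mpeg1.2, mpeg1.3, mfap4.1, grn1 and grn2). Its 10 entries came from marco, cxcr3.2 and MFAP4. Of these, 5 of 7, 2 of 8, 1 of 7 and 1 of 6 testable entries were called higher over the weeks in caudal segments. In rostral segments 5 of 7, 4 of 6, 2 of 7 and 0 of 6 were called higher. With the block the counts at 6 wpi were 0 in caudal and 2 in rostral segments. The median change at 1 wpi was 2.1 in caudal and 2.27 in rostral segments, and the scavenger receptor gene marco rose by 2.03 and 2.24 (limma adjusted p = 0.0295 and 0.00348). The other 4 called at 1 wpi in each region were entries with the symbol MFAP4, a multigene family between whose members reads can be split. Their values are uncertain, and so are the list's counts and median at 1 wpi, which rest largely on these MFAP4 entries. The most abundant of them, ENSDARG00000090783, rose by 3.21 in caudal and 3.14 in rostral segments (adjusted p = 0.00458 and 0.00348). Of the phagolysosome list, 12 of 19, 11 of 18, 5 of 18 and 3 of 18 were called higher in caudal segments and 12, 11, 10 and 7 of 19 in rostral segments (9 at rostral 6 wpi with the block), with a median change at 1 wpi of 2.01 and 1.57. The cathepsin L gene ctsla had 577 ± 279 FPKM at caudal 1 wpi and 96.7 ± 15.9 in caudal control (SD, n = 5 each, adjusted p = 0.00109), and the prosaposin gene PSAP had 386 ± 133 and 174 ± 54.1 FPKM (adjusted p = 0.0289).

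In the list of lipoproteins and cholesterol export, 1, 1, 0 and 0 of 11, 11, 11 and 10 entries were called higher in caudal segments and 1, 2, 1 and 0 of 9, 8, 10 and 10 in rostral segments (1 at rostral 6 wpi with the block). Its median change at 1 wpi was 0.04 in caudal and -0.01 in rostral segments. The apolipoprotein gene apoc1 had 1897 ± 1448 FPKM at caudal 1 wpi and 213 ± 139 in caudal control (SD, n = 5 each, log2 change 3.07, limma adjusted p = 0.00619), and rose by 2.34 in rostral segments (adjusted p = 0.0448). The receptor gene ldlra, named after its values were seen, fell at 1 wpi by 1.74 in caudal and by 1.48 in rostral segments (adjusted p = 0.0076 and 0.0081). Of the CSF1 ligands and csf1rb, 0, 2, 1 and 1 of 4 were called higher in caudal and 0, 2, 2 and 2 of 4 in rostral segments (with the block 1 was lower at rostral 6 wpi, csf1b).

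**Figure D5:**
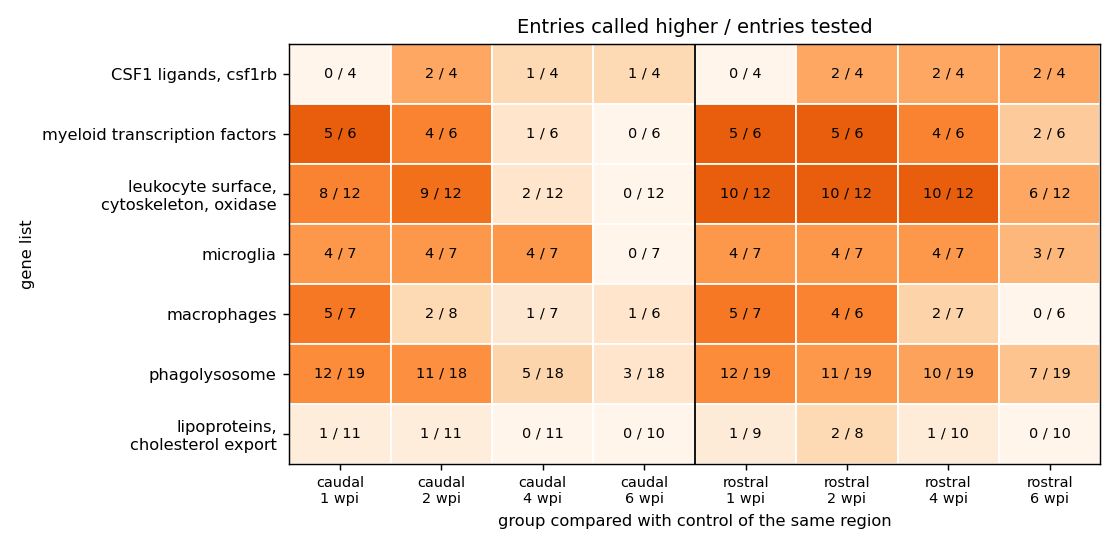
Entries called higher than control over entries tested, printed in each cell and shaded by their share, for 7 gene lists (rows) in the 8 comparisons with control (columns, caudal left of rostral). The leukocyte list has 10 of 12 entries called at rostral 1, 2 and 4 wpi, and the lipoprotein list has at most 2 called in any comparison. Of all genes tested, 0.345% (caudal 6 wpi) to 9% (rostral 2 wpi) were called higher.

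Markers of other cells were read beside these results. The neutrophil list had 5 entries, and 2 of 4, 2 of 4, 2 of 3 and 1 of 3 testable ones were called higher over the weeks in caudal segments and 2 of 5, 3 of 5, 2 of 3 and 2 of 4 in rostral segments (0 at caudal 6 wpi with the block). MMP9 rose by 3.24 at caudal 1 wpi and 3.26 at rostral 1 wpi (limma adjusted p = 3.24e-06 and 3.93e-06) and by 1.64 at caudal and 3.49 at rostral 6 wpi (adjusted p = 0.0107 and 0.000929). The summed level of the 5 neutrophil entries was 24.2 to 34.9 FPKM at caudal 1 wpi and 3.11 to 6.49 in caudal control, and 21.3 to 47.0 at rostral 1 wpi and 3.36 to 7.27 in rostral control. The defining entry lyz was near 0 beside a covered alternate locus, and mpx had no match. The counts and sums thus rest on npsn, csf3r, MMP9 and mmp13a and cannot show whether neutrophils changed. The gene lcp1 is expressed by neutrophils too, and the part of these cells in its change was not tested. The same cells express coro1a, whose entry had too few fragments to show a change.

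Of the oligodendrocyte list, 4, 1, 0 and 0 of 6 entries were called lower over the weeks in caudal segments and 3, 3, 1 and 1 in rostral segments (0 at rostral 6 wpi with the block, where 1.95% of all genes were called lower). Without the block, the shares of all genes called lower were 5.53%, 1.89%, 0.226% and 0.116% in caudal segments. They were 3.5%, 6.14%, 1.43% and 0.823% in rostral segments. Named after their values were seen, the myelin genes plp1b and cldnk fell at 1 wpi in both regions, by 2.32 and 1.57 in caudal segments (limma adjusted p = 0.00589 and 0.00593) and by 1.98 and 1.33 in rostral segments (adjusted p = 0.0477 and 0.0207). The myelin basic protein gene mbpa fell at caudal 1 wpi by 2.02 (adjusted p = 0.0474). The summed level of the 6 oligodendrocyte entries was 13522 to 26182 FPKM at caudal 1 wpi and 40088 to 137405 in caudal control, and 16590 to 38832 at rostral 1 wpi and 42238 to 150635 in rostral control. Of the T cell list 0 of 3 testable entries were called higher in any of the 8 comparisons, and il7r, named after its values were seen, was called lower at caudal 1 wpi. Entries for B cells (2 testable), erythrocytes (2), endothelium (3 or 4), neurons (2), skeletal muscle (2) and epidermis (1) were called in 0 of the 8 comparisons. So few entries cannot show whether these cells changed. Of the radial glia list 1 entry was called lower at caudal 4 wpi, and of the fibroblast list 1 was called lower at rostral 4 wpi. At rostral 6 wpi PDGFRB rose by 0.79 (limma adjusted p = 0.0482, 0.0502 with the block) and LUM fell by 1.4 (adjusted p = 0.0377), both fibroblast entries. The T cell entries cd4-1 and lck and the B cell entry cd79b were near 0. The part of these shifts in the members' changes was not tested.

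Across the 49 libraries, the genes whose log2 level followed each member most closely were found by Pearson's r. For mpeg1.1 they included SLA and lgals9l1 (r 0.91 and 0.909), for lcp1 kctd12.2, ARPC1B and tnfaip8l2a (0.95, 0.948 and 0.946), for csf1ra P2RY12, ITGAV and NEK6 (0.895, 0.887 and 0.881) and for apoeb gpd1c, si:dkey-33i11.1 and grna (0.964, 0.963 and 0.956). Within groups, with group means removed, the same values lay between 0.596 for P2RY12 with csf1ra and 0.922 for kctd12.2 with lcp1. These correlations describe 49 libraries out of 13355 genes searched, and the libraries share groups, depth and replicate sets.

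The members themselves followed each other unequally. Over the 49 libraries r was 0.868 for lcp1 with apoeb, 0.801 for mpeg1.1 with lcp1, 0.799 for mpeg1.1 with apoeb, 0.754 for lcp1 with csf1ra, 0.736 for csf1ra with apoeb and 0.627 for mpeg1.1 with csf1ra. Within groups it was 0.778 for mpeg1.1 with lcp1 and 0.698 for lcp1 with apoeb, whereas csf1ra gave 0.0782 with mpeg1.1 and -0.0974 with apoeb. With FPKM rescaled to fragments on genes, the within-group values were 0.699 for mpeg1.1 with lcp1, 0.553 for lcp1 with apoeb and 0.396 for mpeg1.1 with apoeb, against 0.631 in FPKM for the last pair, and csf1ra gave 0.175 with mpeg1.1 and -0.0684 with apoeb.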

How the data were processed

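RNA was extracted with Trizol and sequenced on an Illumina platform. Per the submitters' processing notes, HISAT2 2.0.5 and featureCounts 1.5.0-p3 were used with danRer11, and whether counting used strand is not given in the sources used here. The authors deposited FPKM values with the position and length of each gene, in 1 table for the series. FPKM multiplied by length was a whole multiple of 1 step per library (tolerance 0.1) in 100% of values, which gave the fragments behind each value. Confidence intervals come from limma and cover the spread between libraries. Fragment totals may hold PCR copies, which are not independent molecules. Gene symbols were taken from a name table, which matched 29178 of 31901 Ensembl identifiers.

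Groups and replicate numbers came from the labels. Values were tested as log2(FPKM + 0.1), where a gene's mean FPKM over the libraries compared reached 0.1, with limma 3.58.1 in R 4.3.3 (two-sided eBayes with trend, threshold 0.05 after Benjamini-Hochberg adjustment over all genes tested) and only the groups compared in a fit. The study's own tool takes counts and was not run. In its place limma was run on the deposited FPKM, and voom on the recovered fragments is among the alternatives. Alternatives were pseudocounts of 1 and 0.01, no filter or a mean FPKM of at least 1, quantile normalization, median ratio rescaling, rescaling to the fragments on genes, voom on the fragments, all groups in 1 fit, eBayes with no trend, a replicate block, replicates 1 to 3 or 4 and 5 only, and leaving out each library. Same-numbered libraries deviated together (every pair's r over 0.1) for 6 wpi against control and against 1 wpi in both regions, caudal 2 wpi against 1 wpi, and caudal with rostral libraries at every time (mean r 0.548 to 0.692), and there the block is given where it changes a call. The block in fits of caudal 6 wpi leaves out replicate 4 of the other group.

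The members and lists were chosen with earlier results of these data known. Named beside the members are their closest relatives, from each list the 2 entries of largest and the 1 of smallest mean FPKM over 49 libraries where above 0.1, and the 3 genes of highest correlation with each member. Some genes that this rule or the lists would name are not reported here. Single-gene values were recomputed under the alternatives for the comparisons whose values are printed. No sequence of the members was used here.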

Additional observations from a re-analysis of the deposited data

Results flagged for a closer look

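Of 50 combinations of a gene and a group looked at for a library far from the others, 2 were found, and chance gives about 1 in 20. The lcp1 level of caudal 2 wpi replicate 4 was 93.4 FPKM, and its group's other libraries lay between 51.7 and 63.6 FPKM. Without it lcp1 at caudal 2 wpi was no longer called against control. The apoeb level of caudal control replicate 5 was 1692 FPKM, and the other caudal control libraries lay between 249 and 656 FPKM. Without it apoeb at caudal 6 wpi was called against control.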

How the results depend on the processing

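Of 4 tested members, the number called against control moved with the libraries kept, where calls lay near the threshold, and with the scaling or fit used. The size of some changes also differed between the replicate sets. At rostral 1 wpi lcp1 changed by 0.72 within replicates 4 and 5 and by 2.61 within replicates 1 to 3, and apoeb by 3.80 and 4.03. With all libraries kept, it moved from 0 to 3 at caudal 6 wpi when rescaled or with all groups in 1 fit. The share of all genes called also moved with the setting and is not given for each. A higher count here can therefore not be read as particular to the members. With replicates 4 and 5 only, it was 2 at caudal 1 wpi, 0 at caudal 2 and 4 wpi, 2, 1, 0 and 1 at rostral 1, 2, 4 and 6 wpi, and caudal 6 wpi could not be fitted. With replicates 1 to 3 only it was 1 at caudal 4 wpi, 0 at rostral 6 wpi and 0 for caudal 6 against 1 wpi. At caudal 4 wpi it was 1 with the replicate block (1.06% of all genes called higher) 1 with no trend, 3 rescaled to fragments on genes and 3 with all groups in 1 fit. At caudal 6 wpi it was 1 with the replicate block, 1 with quantile normalization, 3 rescaled and 3 in 1 fit. At rostral 6 wpi it was 1 with no filter, 4 rescaled, 1 with no trend, and 3 with the replicate block, a mean FPKM of at least 1, voom or 1 fit. At caudal 2 wpi it was 4 with the replicate block, rescaled and in 1 fit, and at rostral 4 wpi 4 rescaled and in 1 fit and 2 with replicates 1 to 3 only. For 6 against 1 wpi it was, in caudal segments, 2 with the replicate block, 2 with quantile normalization, 2 rescaled and 2 in 1 fit, and in rostral segments 2 with the block, 1 rescaled and 1 in 1 fit.

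Leaving out each library in turn gave 3 to 4, 2 to 4, 1 to 3 and 0 to 1 over the weeks in caudal segments and 4 to 4, 3 to 4, 2 to 4 and 0 to 2 in rostral segments. Caudal 6 against 1 wpi gave 0 to 1, and all other comparisons 0 to 0. Reversed values were those of csf1rb at rostral 1 wpi with replicates 4 and 5 only (-0.0892), lcp1 at rostral 6 against 1 wpi (0.00013 with quantile normalization, 0.28 with replicates 4 and 5 only), lcp1 at caudal 6 against 1 wpi (0.0793 with quantile normalization), and the regional difference of the apoeb change at 6 wpi without caudal 6 wpi replicate 5 (-0.0639, leave-one-out range -0.0639 to 0.74). None was called in the fit as reported. The cause was not tested. Of 38 single-gene results not printed, 0 passed the threshold in any setting, and 85 of 1064 values had the other sign.

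Rescaling to the fragments on genes moved the median change of all genes against control to between 0.19 and 0.31 (log2) and the calls at 1 wpi to 4001 higher and 327 lower in caudal segments (2151 and 1561 as deposited) and 3111 and 143 in rostral segments (1781 and 986). Rescaled, 1720, 759 and 666 genes were called higher at caudal 2, 4 and 6 wpi (1269, 327 and 98 as deposited). At rostral 2, 4 and 6 wpi 3419, 1896 and 2325 genes were called higher (2527, 1420 and 974 as deposited). The coro1a entry held 8 fragments in all and could not be tested.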
